A study of Mus musculus with 22 samples.

Results

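The genes described here are the 8 receptors *Sstr1*, *Sstr2*, *Sstr3*, *Sstr4*, *Sstr5*, *Npy1r*, *Npy2r* and *Npy5r*, out of 39179 gene IDs in the count tables. They were taken as a family of somatostatin and neuropeptide Y receptors because the count of *Npy2r* was higher and that of *Sstr2* lower in *Phf8* KO than in WT ventral striatum, and since they were chosen by those counts the values of that contrast are given as a description with no test. RNA was sequenced from 22 mouse samples on a B6x129SvJ background, WT or carrying a KO allele of *Phf8*, the X-linked gene of a histone demethylase. The samples are embryonic stem cells grown from blastocysts on gelatin or feeders (ESCs, 2 WT and 2 KO), neural progenitor cells taken at E16.5 and grown as a monolayer (NPCs, 3 and 3), and the ventral striatum (STR, 3 and 3) and prefrontal cortex (PFC, 3 and 3) of animals 2 months old. The KO allele came from clones of V6.5 ESCs in which Cre recombinase had removed exons for part of the catalytic JmjC domain, so every cell of a KO sample carries the deletion, apart from any feeder cells in the ESC cultures. The labels give neither sex nor litter nor the number of animals or cultures behind a sample, so the tests measure the spread between these samples, which may be partly technical.

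Somatostatin and cortistatin, made by inhibitory interneurons, signal through SSTR1 to SSTR5, and neuropeptide Y signals through the NPY receptors Y1, Y2 and Y5. All are G protein-coupled receptors of the Gi/o type, which lower cAMP and open inwardly rectifying potassium channels, and thereby dampen neuronal firing and transmitter release. In the striatum and cortex SSTR2 and the Y1 receptor are best known as receptors on the neurons that receive the peptide, and the Y2 receptor as a presynaptic brake on the release of neuropeptide Y and other transmitters.

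In GRCm38, *Sstr1* (ENSMUSG00000035431) lies on chromosome 12 from 58211772 to 58214444, *Sstr2* (ENSMUSG00000047904) on chromosome 11 from 113619342 to 113626028 and *Sstr4* (ENSMUSG00000037014) on chromosome 2 from 148395344 to 148396767, all on the plus strand. *Sstr3* (ENSMUSG00000044933) lies on chromosome 15 from 78537008 to 78544685 and *Sstr5* (ENSMUSG00000050824) on chromosome 17 from 25489875 to 25497288, both on the minus strand. *Npy2r* (ENSMUSG00000028004) lies on the minus strand of chromosome 3 from 82538383 to 82548084. *Npy1r* (ENSMUSG00000036437, chromosome 8, 66697192 to 66706792, plus strand) and *Npy5r* (ENSMUSG00000044014, chromosome 8, 66679965 to 66688128, minus strand) are neighbours that point away from each other with 9063 bases between them. In 6 of the 8 genes the annotated coding sequence is a single uninterrupted segment. Only *Sstr2* lies within the span of another counted gene, *Slc39a11* on the opposite strand, with which it shares 0 exonic bases.

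The promoters of *Sstr2* and *Npy2r* are shown because these 2 genes led to the choice of the family. Each line is the 250 bases before the RefSeq transcription start on GRCm38.p6, with CG dinucleotides in capitals. The *Sstr2* stretch is chr11:113619077-113619326 on the plus strand and the *Npy2r* stretch is chr3:82548086-82548335 on the minus strand.
Sstr2: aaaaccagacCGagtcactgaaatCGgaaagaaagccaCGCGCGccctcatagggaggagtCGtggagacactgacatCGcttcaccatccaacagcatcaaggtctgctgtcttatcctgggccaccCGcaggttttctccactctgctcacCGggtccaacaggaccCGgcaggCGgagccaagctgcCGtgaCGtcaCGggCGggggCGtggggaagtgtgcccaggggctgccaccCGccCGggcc
Npy2r: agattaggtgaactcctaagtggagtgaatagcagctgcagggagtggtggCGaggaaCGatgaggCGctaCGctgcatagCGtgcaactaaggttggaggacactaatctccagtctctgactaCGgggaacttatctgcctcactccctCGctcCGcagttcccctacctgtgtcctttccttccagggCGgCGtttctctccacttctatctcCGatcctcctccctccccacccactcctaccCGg

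The *Sstr2* stretch held 18 CG dinucleotides and the *Npy2r* stretch 12. RefSeq windows of 300 bases, from 250 before to 50 after the start, were at hand for 6 of the 8 receptors, with 7 windows in all since *Sstr3* has a pair of starts. *Sstr4* had 35 CG dinucleotides in its window, *Sstr2* 27, *Npy5r* 15, *Npy2r* 14, *Npy1r* 10 and *Sstr3* 10 and 1, against a median of 7 over 32851 windows. All receptors but the second *Sstr3* start therefore lay above that median, and *Sstr4* lay at the 93.0 percentile. *Sstr2* was the only one of the 6 whose window held the full cAMP response element TGACGTCA, an 8-base palindrome that reads the same on both strands and contains the shorter half-site TGACG. The element was found in 1.79% of all windows, among them that of *Sst*, the ligand gene in which it was classically described. It is shown in capitals below, 58 bases before the start of *Sstr2* (chr11:113619253-113619292, plus strand) and 48 bases before that of *Sst* (chr16:23890869-23890908, minus strand). A match of letters is not evidence of binding, which these data do not measure.
Sstr2: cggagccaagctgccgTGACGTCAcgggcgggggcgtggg
Sst: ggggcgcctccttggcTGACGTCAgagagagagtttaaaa

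**Figure D1:**
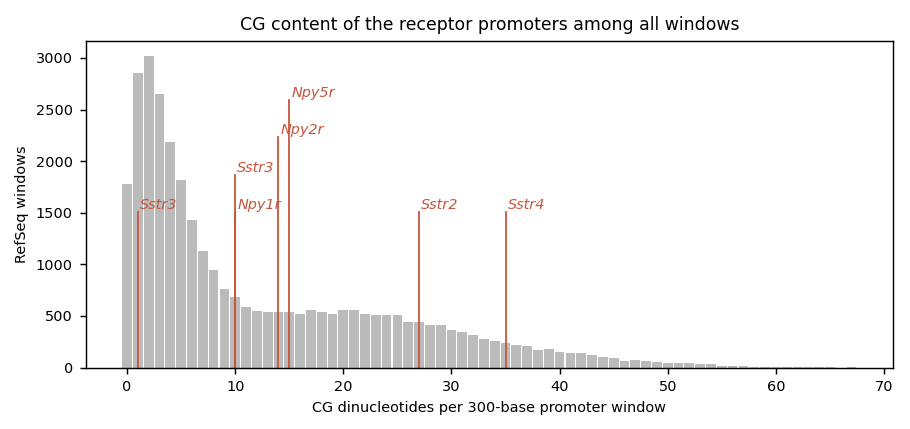
Number of CG dinucleotides in 300-base promoter windows (horizontal axis) against the number of RefSeq windows with that many (grey bars, vertical axis), with red lines at the 7 windows of 6 receptor genes. *Sstr2* at 27 and *Sstr4* at 35 sit in the right-hand part of the distribution, and 1 of the 2 *Sstr3* windows sits at its left edge.

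Between 5898286 and 10148073 reads were counted on genes in a brain sample and between 11455757 and 15539811 in a cell culture sample. *Phf8* itself lay between 38.4 and 70.3 CPM (counts scaled to library size, with TMM factors over the 22 samples) in the WT samples and between 13.4 and 22.2 CPM in the KO samples, and the ranges did not overlap. The summed CPM of 9 genes of striatal projection neurons was 1486 to 2001 in STR and 260 to 295 in PFC samples, and that of 8 genes of cortical excitatory neurons was 160 to 657 in STR and 1108 to 1342 in PFC, as the tissue labels imply. KO replicate 1 of STR stood apart: its 12 hypothalamic marker genes summed to 230 CPM, against 23.1 to 28.4 in WT and 51.5 and 40.8 in the other KO samples, and its cortical genes to 160 CPM, against 466 to 657 in the other 5 STR samples. The log2 fold changes that use it are therefore also given without it, while group means, ligand values and correlations include it.

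The 8 receptors were brain genes in this series, *Sstr5* in STR alone. ESCs held at most 10 counts of any of them in any sample, none passed the expression filter there, and *Npy5r* had 0 counts in all 4 ESC samples, where 3 counts would have been 0.257 to 0.301 CPM. Genes of fibroblast feeders summed to 3528 and 4310 CPM in replicate 2 of the WT and KO ESCs and to 157 and 147 CPM in replicate 1, and the receptor counts were low in both. In NPCs 4 receptors, *Sstr1*, *Sstr2*, *Sstr4* and *Npy1r*, passed the filter, with 0.0927 to 2.46 CPM in single samples. In the brain samples every receptor but *Sstr5* had more than 10 counts in all 12 samples. *Sstr5* averaged 1.02 CPM in WT and 0.479 in KO PFC, against 0.264 in WT and 0.600 in KO ESCs.

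**Figure D2:**
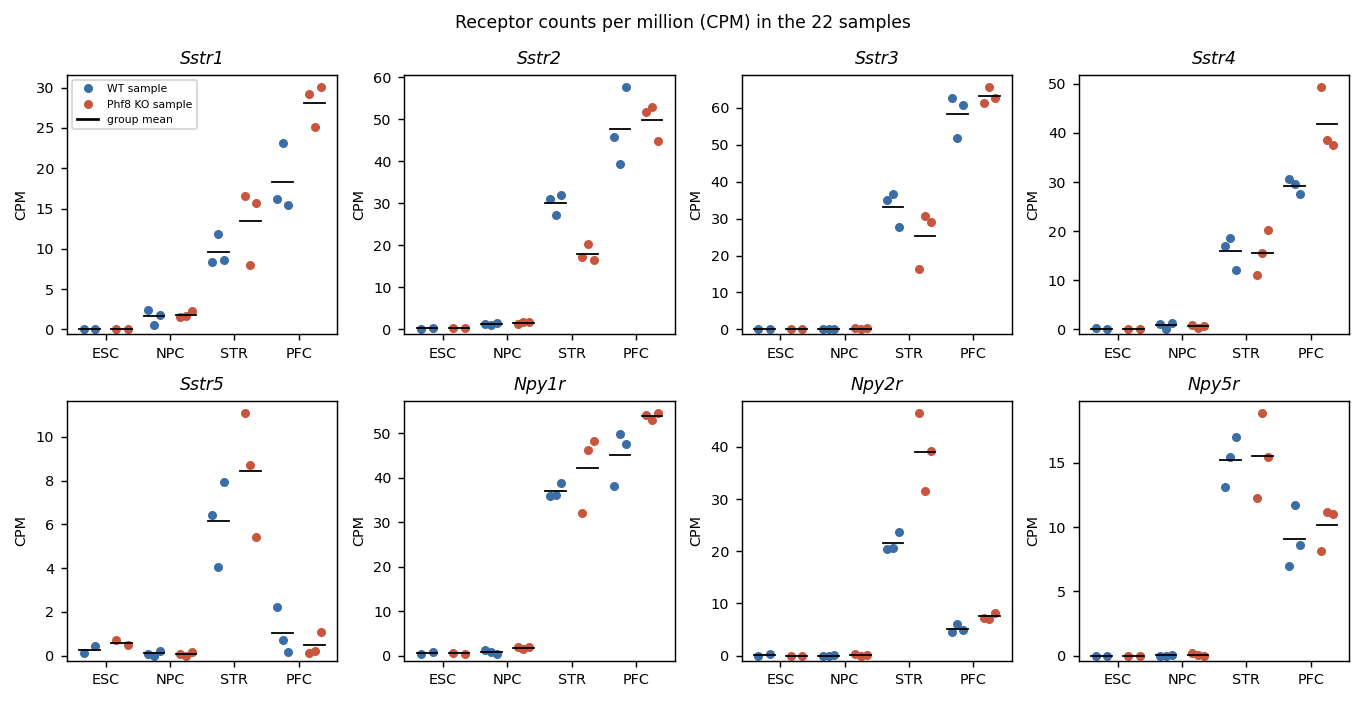
CPM of each receptor (vertical axes, linear, each with its own scale) in ESC, NPC, STR and PFC samples, with blue points for WT, red points for *Phf8* KO and a black line for the group mean. The 7 receptors other than *Sstr5* lie near 0 in ESCs and NPCs and well above in both brain regions, and *Sstr5* rises above 3 CPM in STR samples alone.

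Levels between genes were compared as RPKM, which divides the CPM by the exon length. In WT PFC *Sstr2* stood at 22.2 ± 4.38 RPKM (SD, n = 3) and *Sstr4* at 20.5 ± 1.03, and the values of these 2 genes overlapped. *Sstr3* (13.5 ± 1.32), *Npy1r* (13.1 ± 1.78) and *Sstr1* (8.92 ± 2.08) followed, each overlapping the next in that order. *Npy5r* at 3.56 ± 0.950, *Npy2r* at 1.52 ± 0.236 and *Sstr5* at 0.374 ± 0.390 RPKM came last and were apart from each other. In WT STR *Sstr2* was again first, at 14.0 ± 1.18 RPKM, followed by *Sstr4* (11.2 ± 2.40) and *Npy1r* (10.7 ± 0.475). *Sstr3* (7.70 ± 1.10), *Npy2r* (6.37 ± 0.567), *Npy5r* (5.95 ± 0.769) and *Sstr1* (4.71 ± 0.935) formed a lower set in which neighbours overlapped, and *Sstr5* was lowest at 2.24 ± 0.712. The receptors were thus spread over a wider range of levels in PFC than in STR. In NPCs the mean of *Sstr1* was highest in both genotypes, at 0.792 ± 0.475 RPKM in WT and 0.894 ± 0.170 in KO samples, but its values overlapped those of the next gene, *Sstr4* in WT and *Sstr2* in KO samples.

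Between the 2 brain regions of WT animals, the somatostatin receptors *Sstr1* to *Sstr4* were higher in PFC, and *Sstr5*, *Npy2r* and *Npy5r* were higher in STR. These 7 of 8 receptors passed an FDR of 0.05 in edgeR's quasi-likelihood test, where 24.4% of the 15555 genes tested did so, 13% higher in PFC and 11.4% higher in STR. Among them *Sstr5* passed the expression filter through its STR samples, where it was high, so its call is given as a description. For the same 7 the samples of the regions did not overlap, as for 39.5% of all genes. In a bulk sample, fewer cells of a type and less RNA per cell cannot be told apart. The WT STR samples are also part of the contrast by which *Npy2r* and *Sstr2* were chosen, and their regional difference is not independent of that choice.

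*Npy2r* gave the clearest regional difference among the NPY receptors. Its CPM was 20.4, 20.5 and 23.8 in WT STR and 4.53, 6.05 and 4.84 in WT PFC. The regions were far apart, with every STR sample above every PFC sample, and the log2 fold change of PFC over STR was -2.07 (SE 0.16, FDR 7.55e-06 in the edgeR test), or 4.21-fold higher in STR. *Npy5r*, the receptor best known for its part in feeding, had 13.1, 15.4 and 17.0 CPM in WT STR and 6.97, 11.7 and 8.59 in WT PFC, a log2 fold change of -0.75 (SE 0.20, edgeR FDR 0.0192). The call on *Npy5r* was lost without STR replicate 2 (log2 fold change -0.73), without STR replicate 3 (-0.66) or without PFC replicate 1 (-0.58). *Npy1r* had 36.0, 36.1 and 38.9 CPM in WT STR and 38.3, 49.9 and 47.6 in WT PFC, so that the regions overlapped. Its log2 fold change of 0.27 had a 95% interval from 0.02 to 0.51 and did not pass (SE 0.11, edgeR FDR 0.118). With the replicate number as a block, which pairs the samples here, the FDR of *Npy1r* was 0.0318 in edgeR. All 8 receptors then passed, and so did 5405 genes in all, against 3791 without the block. Without the block but with PFC replicate 1 left out, the log2 fold change of *Npy1r*, 0.38, also passed.

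Among the somatostatin receptors, *Sstr5* differed most between the regions. It had 6.42, 4.06 and 7.92 CPM in WT STR, but only 20, 8 and 1 counts, or 2.21, 0.701 and 0.156 CPM, in WT PFC. The regions did not overlap, although the PFC samples differed widely among themselves, and the log2 fold change was -2.53 (95% interval -3.63 to -1.42, edgeR FDR 0.00391). Within PFC the gene was below the expression filter. It entered this test through the STR samples, so its FDR is a description. Without PFC replicate 1, the sample with 20 counts, the log2 fold change was -3.61. *Sstr1* went the other way, with 8.42, 11.8 and 8.64 CPM in WT STR and 16.2, 23.1 and 15.5 in WT PFC (log2 fold change 0.91, SE 0.20, edgeR FDR 0.00664). *Sstr4* likewise had 17.1, 18.7 and 12.1 CPM in STR and 30.5, 29.5 and 27.6 in PFC (0.85, SE 0.15, edgeR FDR 0.00217). For both genes every PFC sample was above every STR sample. *Sstr3*, a receptor of neuronal primary cilia, had 35.1, 36.8 and 27.9 CPM in STR and 62.7, 52.0 and 60.7 in PFC (0.78, SE 0.12, edgeR FDR 0.000916). *Sstr2* had 31.0, 27.2 and 31.9 CPM in STR and 45.8, 39.3 and 57.8 in PFC (0.63, SE 0.14, edgeR FDR 0.00861). The values of *Sstr2* and *Sstr3* did not overlap between the regions either.

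In KO samples the same 7 receptors passed in the same directions, where 27.7% of all genes passed, but this is a description from which nothing is read, because the KO STR samples helped to choose the genes. The log2 fold change of PFC over STR in KO samples was 1.05 for *Sstr1*, 1.43 for *Sstr2*, 1.29 for *Sstr3* and 1.40 for *Sstr4*. It was -4.18 for *Sstr5*, -2.41 for *Npy2r*, -0.65 for *Npy5r* and 0.33 for *Npy1r*. Leaving out any single sample other than STR replicate 1 left 6 receptors passing. Without STR replicate 1 the log2 fold changes were 1.24 for *Sstr1*, 1.41 for *Sstr2*, 1.05 for *Sstr3*, 1.20 for *Sstr4*, -3.94 for *Sstr5*, -2.26 for *Npy2r*, -0.79 for *Npy5r* and 0.16 for *Npy1r*. The *Sstr5* value rests on 1, 2 and 9 counts in KO PFC and was -5.57 without PFC replicate 3, the sample with 9 counts. Whether these regional differences depend on genotype was not tested.

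**Figure D3:**
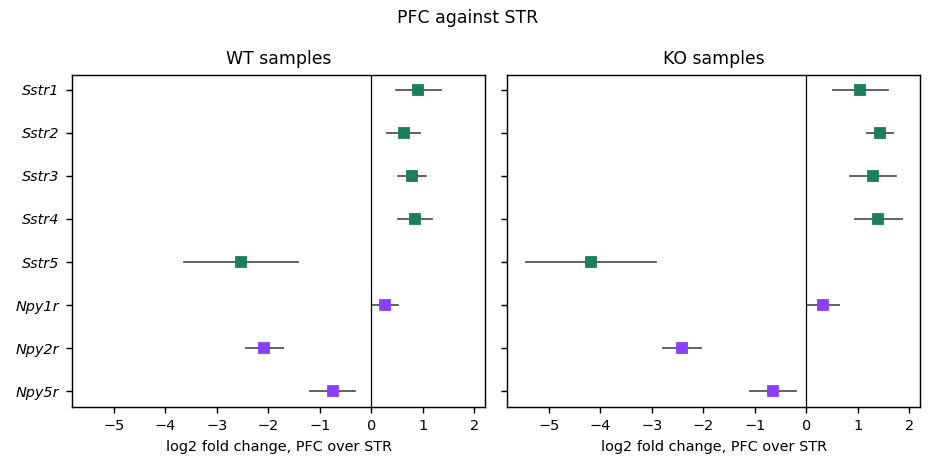
Log2 fold change of PFC over STR for each receptor (squares, horizontal axis) with its 95% interval (lines), in WT samples on the left and KO samples on the right, with somatostatin receptors in green and NPY receptors in purple. *Sstr1* to *Sstr4* lie to the right of 0 in both panels, while *Sstr5*, *Npy2r* and *Npy5r* lie to the left. The STR samples of both panels are part of the contrast that chose the genes, and the KO panel is a description only.

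The rule that chose the genes used STR and not PFC. PFC is still not fully independent of it. The genes were chosen with earlier results of these data known, and same-numbered PFC and STR samples are taken as paired. In PFC the fitted level of each of the 7 receptors that passed the filter was higher in KO samples. The log2 fold changes were 0.07 to 0.59 with a median of 0.24, against a median of -0.02 over all genes tested. That *Sstr2* and *Npy5r* were higher depended on single samples, since their log2 fold changes were -0.05 without WT replicate 2 and -0.05 without WT replicate 1. None of the 7 passed an FDR of 0.05 in edgeR's quasi-likelihood test, which called 0.638% of the 15364 genes tested. At an unadjusted p under 0.05 the test counted 4 of the 7, and 11.2% of all genes. For the same 4 receptors, *Sstr1*, *Sstr4*, *Npy1r* and *Npy2r*, every KO sample was above every WT sample, as for 8.72% of all genes. DESeq2 and edgeR's exact test each put 2 of them, *Sstr1* and *Sstr4*, under an FDR of 0.05. These 2 tests also called more genes in all, 182 and 376, against 98 in the quasi-likelihood test.

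*Sstr4* had 30.5, 29.5 and 27.6 CPM in WT and 49.4, 38.7 and 37.5 in KO PFC, and *Sstr1* had 16.2, 23.1 and 15.5 in WT and 29.2, 25.1 and 30.1 in KO PFC. In both genes the groups were apart, though for *Sstr1* the highest WT sample came close to the lowest KO sample. The log2 fold change of *Sstr4* was 0.50 (SE 0.12, 95% interval 0.25 to 0.76), with an FDR of 0.0800 in edgeR's quasi-likelihood test, 0.0293 in DESeq2 and 0.00863 in edgeR's exact test. That of *Sstr1* was 0.59 (SE 0.15, 95% interval 0.26 to 0.92), with an FDR of 0.115, 0.0398 and 0.0166 in the same 3 tests. Without WT replicate 2 the log2 fold change of *Sstr1* was 0.82 and passed the quasi-likelihood test. For both genes the call thus depended on the test used.

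*Npy2r*, at a far lower level in PFC than in STR, had 4.53, 6.05 and 4.84 CPM in WT and 7.27, 7.03 and 8.21 in KO PFC. Its log2 fold change of 0.52 (SE 0.18, 95% interval 0.12 to 0.91) did not pass (edgeR FDR 0.285). *Npy1r* had 38.3, 49.9 and 47.6 CPM in WT and 54.1, 53.0 and 54.6 in KO PFC, a log2 fold change of 0.24 (SE 0.10, edgeR FDR 0.404). The 3 KO samples of *Npy1r* were close together, and they lay above the highest WT sample by less than the range of the WT samples. *Sstr2*, whose count was lower in KO STR, had 45.8, 39.3 and 57.8 CPM in WT and 51.7, 53.0 and 44.9 in KO PFC. Its groups overlapped fully, and the 95% interval of its log2 fold change in PFC ran from -0.21 to 0.35 (edgeR FDR 0.905). *Sstr3* (log2 fold change 0.11) and *Npy5r* (0.12) also overlapped, and *Sstr5* was below the filter with 20, 8 and 1 counts in WT and 1, 2 and 9 in KO PFC.

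The summed CPM of the 5 somatostatin receptors was 157, 145 and 162 in WT and 192, 183 and 176 in KO PFC, and that of the 3 NPY receptors was 49.8, 67.6 and 61.1 in WT and 69.5, 71.3 and 73.9 in KO PFC. Both sums were higher in every KO sample, narrowly for the NPY receptors (67.6 in the highest WT and 69.5 in the lowest KO sample). They are made of the receptors given above and are no separate result. Markers of other cells moved with the same contrast: the summed CPM of 6 oligodendrocyte genes was 1699 to 2235 in WT and 1389 to 1482 in KO PFC, that of 5 astrocyte genes 840 to 888 and 761 to 811, and that of 5 genes of blood 45.5 to 61.4 and 37.7 to 38.6. Within the astrocyte list *Gfap* (147 to 150 CPM in WT and 101 to 113 in KO) and *Aqp4* (112 to 122 and 96.3 to 105) were apart. *Slc1a3*, *Gja1* and *Aldh1l1* overlapped. Within the oligodendrocyte list *Mbp* overlapped (457 to 635 CPM in WT and 453 to 478 in KO) and the other genes were apart. Within the blood list *Hba-a1* and *Alas2* overlapped and the other genes were apart. The lists of cortical excitatory neurons (1108 to 1312 in WT, 1280 to 1342 in KO) and interneurons (191 to 220 and 185 to 201) overlapped. The part of the glial and blood markers in the receptor values was not tested.

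In STR, the contrast by which the genes were chosen, *Npy2r* had 20.4, 20.5 and 23.8 CPM in WT and 46.5, 31.6 and 39.1 in KO samples. *Sstr2* had 31.0, 27.2 and 31.9 CPM in WT and 17.3, 20.2 and 16.6 in KO samples. In both genes the WT and KO samples were apart, upward in *Npy2r* (log2 fold change 0.87) and downward in *Sstr2* (-0.72). Of all genes tested in STR, 6.49% were higher and 6.69% lower in every KO sample, 0% passed an FDR of 0.05 in the quasi-likelihood test and 8.7% had an unadjusted p under 0.05. Nothing is read from these counts for the 2 genes, since the rule used them.

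The 6 other receptors overlapped between WT and KO STR. *Sstr3* had 35.1, 36.8 and 27.9 CPM in WT and 16.3, 30.7 and 29.0 in KO samples (log2 fold change -0.39), so that KO replicate 1 alone was below the WT range. *Sstr1* had 8.42, 11.8 and 8.64 CPM in WT and 16.53, 7.96 and 15.7 in KO samples (0.48), and *Sstr5* had 6.42, 4.06 and 7.92 in WT and 11.1, 8.73 and 5.44 in KO samples (0.48). In both of these genes 2 of the 3 KO samples were above the WT range. The log2 fold changes of *Npy1r* (0.20), *Npy5r* (0.05) and *Sstr4* (-0.03) were smaller. By RPKM the order in KO STR was *Npy1r* (12.2 ± 2.56, SD, n = 3), *Npy2r* (11.6 ± 2.20), *Sstr4* (10.99 ± 3.22) and *Sstr2* (8.42 ± 0.898), with neighbours overlapping, so that *Sstr2* was no longer first and *Npy2r* stood beside *Npy1r*.

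Several marker lists moved with this contrast. The 12 hypothalamic genes summed to 23.1 to 28.4 CPM in WT and 40.8 to 230 in KO STR, with 3 to 5 of them over 1 CPM in WT and 5 to 9 in KO samples. *Sim1*, a defining transcription factor of hypothalamic neuroendocrine cells, was at 0 in all STR samples other than KO replicate 1, where it had 5.33 CPM. Other genes of the list were higher in every KO sample. *Oxt* had 0.3601 to 1.003 CPM in WT and 2.659 to 39.38 in KO, and *Avp* 0.4801 to 1.504 and 2.532 to 62.45. *Trh* had 8.357 to 11.03 and 14.03 to 58.57, and *Nkx2-1* 7.544 to 9.727 and 14.05 to 19.86. *Hmx2*, *Fezf1* and *Pmch* were also apart, but below 1 CPM in KO replicates 2 and 3. *Otp*, *Hcrt*, *Pomc* and *Agrp* overlapped. The 5 interneuron genes summed to 108 to 117 CPM in WT and 123 to 170 in KO samples, a difference carried by *Lhx6* (48.6 to 56.8 and 62.5 to 101 CPM), since the other 4 summed to overlapping values of 55.0 to 65.0 and 59.6 to 68.8. The 8 cortical genes summed to 482 to 657 CPM in WT and 160 to 529 in KO samples, which overlapped, with KO replicate 1 alone far below. The lists of astrocytes (747 to 773 in WT, 787 to 867 in KO), choroid plexus (68.6 to 74.6 and 77.5 to 92.3) and blood (41.9 to 48.9 and 30.5 to 40.5) did not overlap. Of the choroid plexus genes only *Clic6* was apart (33.3 to 47.0 CPM in WT and 49.4 to 55.3 in KO), and *Ttr* and the others overlapped. Each astrocyte gene by itself overlapped. Of the blood genes only *Hba-a1* was apart (8.93 to 9.96 CPM in WT and 6.71 to 8.84 in KO). Without KO replicate 1 the log2 fold change was 0.71 for *Npy2r* and -0.70 for *Sstr2*, against 0.87 and -0.72 with it. Nothing is read from this for the 2 genes. For the other receptors it was -0.15 for *Sstr3*, 0.29 for *Sstr1*, 0.22 for *Sstr5*, 0.36 for *Npy1r*, 0.19 for *Npy5r* and 0.16 for *Sstr4*. The part of the other marker lists in these values was not tested.

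**Figure D4:**
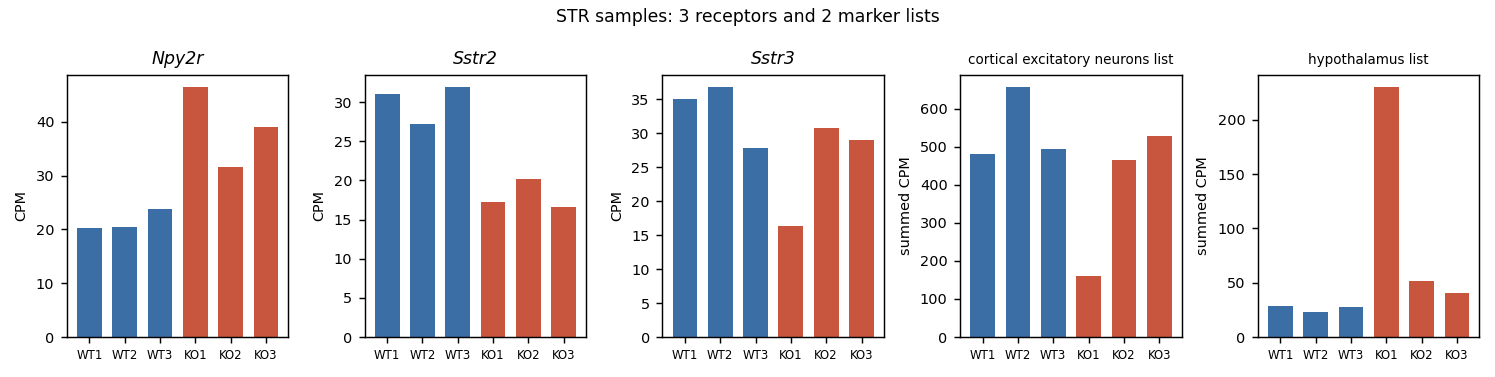
Bars give, for each of the 6 STR samples (WT in blue, KO in red, numbered by replicate), the CPM of *Npy2r*, *Sstr2* and *Sstr3* and the summed CPM of 8 cortical and 12 hypothalamic marker genes, on linear axes from 0. *Npy2r* and the hypothalamic sum are above, and *Sstr2* below, every WT sample in all 3 KO samples. The low *Sstr3* and cortical sum belong to KO replicate 1, as does the largest hypothalamic sum, 230 CPM.

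In NPCs the receptors were close to the limit of detection, and 0 of the 4 that passed the filter reached the FDR threshold of 0.05 by the quasi-likelihood test of edgeR, by DESeq2 or by the exact test. The first of these called 0.00697% of 14351 genes. At an unadjusted p under 0.05 that test counted 1 of the 4, *Npy1r*, and 3.03% of all genes. *Npy1r* had 1.23, 0.834 and 0.443 CPM in WT and 1.86, 1.51 and 1.91 in KO NPCs, from 6 to 24 counts per sample. Every KO sample was above every WT sample, as for 3.57% of genes, and the log2 fold change was 1.08 (95% interval 0.14 to 2.02, edgeR FDR 1, and 0.427 with the replicate block). *Sstr1* had 2.46, 0.556 and 1.85 CPM in WT and 1.59, 1.67 and 2.23 in KO NPCs, and *Sstr4* had 1.15, 0.0927 and 1.33 in WT and 0.972, 0.238 and 0.636 in KO NPCs. Both genes were lowest in WT replicate 2, and *Sstr4* also in KO replicate 2, the samples in which 6 oligodendrocyte genes summed to 219 and 412 CPM against 1886 to 3135 in the other 4. The log2 fold change of *Sstr1* was 0.17, and -0.22 without WT replicate 2, and that of *Sstr2* was 0.36. That of *Sstr4* was -0.51, and it ran from -1.01 without WT replicate 2 to -0.13 without KO replicate 2 and -0.05 without WT replicate 3. In ESCs the counts of at most 10 allow no comparison of genotypes.

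**Figure D5:**
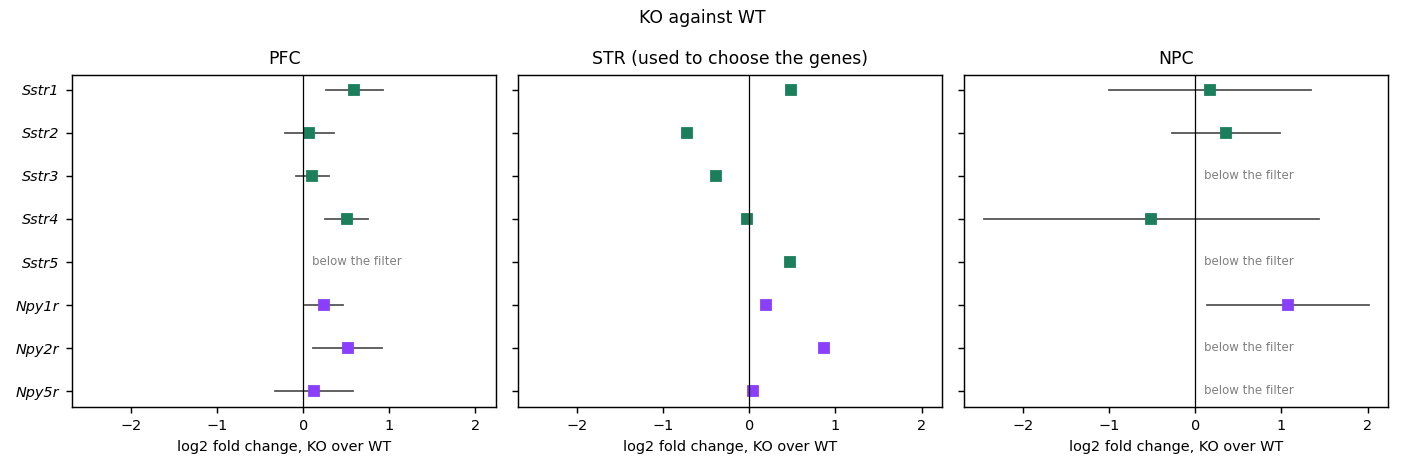
Log2 fold change of KO over WT for each receptor (squares, horizontal axis, the same in all panels) in PFC, STR and NPCs, with its 95% interval (lines) in PFC and NPCs and none in STR, whose values chose the genes, and with somatostatin receptors in green and NPY receptors in purple. In PFC the 7 receptors tested lie to the right of 0, by 0.07 to 0.59, while in STR *Npy2r* (0.87) and *Sstr2* (-0.72), for which the genes were chosen, lie on opposite sides.

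Of the ligands, *Sst* was nearly level between the genotypes. It had 70.6, 83.7 and 84.3 CPM in WT and 77.8, 75.9 and 76.2 in KO STR, and 67.7, 63.7 and 97.3 in WT and 71.1, 71.4 and 77.3 in KO PFC. Its groups overlapped in both regions, with a log2 fold change of -0.04 in STR and -0.06 in PFC. *Npy* had 40.2, 46.0 and 51.0 CPM in WT and 36.3, 39.6 and 38.2 in KO STR, and 42.9, 43.5 and 52.3 in WT and 42.4, 42.1 and 42.4 in KO PFC. Every KO sample was thus below every WT sample in both regions, by a log2 fold change of -0.25 (SE 0.10, edgeR FDR 0.535) in STR and -0.13 (SE 0.10, edgeR FDR 0.705) in PFC, neither of which passed. In STR 6.69% and in PFC 8.39% of all genes were lower in every KO sample, and in PFC the highest KO and the lowest WT sample were 42.4 and 42.9 CPM. *Cort*, the gene of cortistatin, was on average at 5.24 CPM in WT and 2.65 in KO STR and at 10.2 in WT and 7.58 in KO PFC, with overlapping groups in both regions (log2 fold change -0.97, SE 0.51, and -0.46, SE 0.27). *Ppy* and, in the brain samples, *Pyy* had 0 counts, and both encode relatives of neuropeptide Y made mainly outside the brain. The cultured cells held 0 counts of *Sst* in all 10 samples.

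Of 26 further genes of these pathways (ligands, the receptor gene *Npy4r*, enzymes that process the peptides, inhibitory G protein subunits, potassium channels, and receptor kinases and arrestins), 22 passed the filter in PFC and 23 in STR. None passed an FDR of 0.05 between KO and WT in edgeR's quasi-likelihood test in any of the 4 tissues. At an unadjusted p under 0.05 that test counted 4 of 22 genes in PFC, all higher in KO, beside 11.2% of all genes, and 2 higher and 1 lower of 23 in STR, beside 8.7%. In NPCs and ESCs it counted 0, beside 3.03% and 1.13% of all genes. In ESCs 0% of all genes passed the FDR, but 513 genes did with the replicate number as a block. No receptor passed the filter there, and same-numbered ESC samples deviated together (r = 0.886). With 2 samples per group both pairs must give this same value, so it is a single correlation. DESeq2 and the exact test also put 0 of the 26 genes under that FDR in PFC, STR, NPCs and ESCs. Their median log2 fold change in PFC was 0.02, against 0.24 for the 7 receptors. Between the regions in WT animals, 11 of 23 were higher in PFC and 1 in STR at an FDR of 0.05, beside 13% and 11.4% of all genes. *Dpp4*, the enzyme that trims neuropeptide Y into a form with less affinity for Y1, had 1.25 ± 0.163 CPM in STR and 14.2 ± 1.74 in PFC (SD, n = 3, log2 fold change 3.46, edgeR FDR 1.59e-06). *Kcnj9* (1.21) and *Pcsk1*, a prohormone convertase (1.11), followed by FDR. The single gene higher in STR was *Kcnj5*, at 3.45 ± 0.784 CPM against 0.823 ± 0.382 (-1.99, edgeR FDR 0.00181), while the other 3 channel genes of the family, among them *Kcnj9*, were higher in PFC. *Sst* (-0.10) and *Npy* (-0.01) were at like levels in both regions, and *Cort* (0.96, edgeR FDR 0.109) passed with the replicate block (edgeR FDR 0.000821).

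Over the 12 brain samples, the genes whose log2 CPM followed each receptor most closely were named by Pearson's r among 15679 genes. These samples share 2 regions and their libraries, so r largely follows the regional difference, and r of the deviations from the 4 group means is given beside it. *Sstr2* was closest to *Crem* (r = 0.963, deviations 0.705), *Egr1* (0.962, deviations 0.927) and *Twf2* (0.962, deviations 0.826). *Egr1*, a transcription factor induced by neuronal activity, kept the closest match to *Sstr2* within groups among these 3. *Npy2r* was closest to *H2-Q2* (0.996, deviations 0.829), *Tmem255a* (0.990, deviations 0.720) and *Serpinb1b* (0.988, deviations 0.824), and *H2-Q2* is uncertain because it has near-identical copies among the MHC class I genes. *Sstr1* followed *Tub* (0.988, deviations 0.984), *Btrc* and *Chd5*, and *Sstr3* followed *R3hdm1* (0.990, deviations 0.953), *Inka2* and *Camkk2*. *Sstr4* was closest to *Hivep3* (0.973, deviations 0.904), *Zfp251* and *Kalrn*, and *Sstr5* to *Plppr3* (0.980, deviations 0.880), *6430628N08Rik* and *Zmynd10*. *Npy1r* had the loosest matches, led by *Nlrp6* (0.937, deviations 0.905), *Cenpm* and *Palmd*, and *Npy5r* was closest to *Ctnnbl1* (0.953, deviations 0.885), *Dguok* and *Hist3h2a*. Ranked by Spearman's rho, 0 or 1 of each receptor's 3 genes remained among the first 3, so these names depend on the measure.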

How the data were processed

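RNA was extracted with Qiazol and made into Illumina TruSeq libraries. For each of the 22 samples the authors deposited 1 table of raw counts per gene, without normalization, made by STAR alignment to mm10 (GRCm38) and HTSeq counting on Ensembl 75 gene models. The submitters' notes also name CASAVA 1.7. The versions of STAR and HTSeq and the strand setting for the brain samples are not given in the sources used here. The labels gave genotype, tissue and replicate number. The receptor genes, the pathway list and the marker lists were chosen with earlier results of these data known.

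Gene symbols, positions and exon lengths came from GENCODE M21 on GRCm38, which held 37607 of 39179 gene IDs and 99.709% of the counts. CPM were computed with 1 TMM scaling over all 22 samples in edgeR 4.0.16 (R 4.3.3) and RPKM from the merged exon length. Total counts per sample were 5898286 to 15539811. Replicates differed by more than counting error (chi-square over degrees of freedom 1.83 to 37.3 between pairs), so each sample counted as 1 replicate. Groups were compared pairwise by edgeR's quasi-likelihood test with robust estimation, TMM and edgeR's expression filter. P-values were adjusted over all genes tested (Benjamini-Hochberg, FDR), with a threshold of 0.05. A fold change is the later-named group over the other as fitted. The pipeline was tested on simulated data. Likeness was measured on log2(CPM + 0.5) among genes with a mean of at least 1 CPM in the brain samples. Alternatives were RLE size factors, no filter, DESeq2 1.42.0, edgeR's exact test, a log2 fold change beyond 1 as well, the replicate number as a block, each sample left out, RPKM from total counts or the longest transcript, and Spearman's rho or a pseudocount of 2 for likeness.

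Same-numbered samples are taken as paired where every correlation of their deviations from the group means was over 0.1 with 3 pairs. This held between PFC and STR (0.190 to 0.418 in WT, 0.148 to 0.204 in KO) and between WT and KO NPCs (0.536 to 0.719), a hint from the data since the labels do not say what a number stands for. It did not hold between WT and KO in PFC (-0.0323 to 0.0625) or STR (-0.0211 to 0.136).

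Named were all 8 receptors, *Phf8*, the 5 ligand genes, pathway genes under the FDR threshold (the 3 with the smallest FDR in each direction), markers beside their list, and for each receptor the 3 genes with the highest r. Promoter windows came from RefSeq on GRCm38.p6. Genome sequence and proteins were not used here.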

Additional observations from a re-analysis of the deposited data

How the results depend on the processing

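The number of receptors under an FDR of 0.05 between KO and WT PFC, 0 in edgeR's quasi-likelihood test, was 2 without the expression filter, 2 in DESeq2 and 2 in edgeR's exact test (each time *Sstr1* and *Sstr4*), and 0 to 1 with each sample left out (1, *Sstr1*, without WT replicate 2). In STR, the contrast that led to the choice of the genes, it was 0 in the same test and 2 in each of those 3 settings, counts that the choice favoured and from which nothing is read. Over all genes, those 3 settings called 379, 182 and 376 in PFC, against 98 in the quasi-likelihood test. In STR they called 27, 54 and 104, against 0. The replicate number as a block gave 1 receptor in PFC, *Sstr4* (FDR 0.0489 in edgeR), among 140 genes called. It gave 0 receptors in STR, where same-numbered samples share only a number. Where the pairing held it changed the call on *Npy1r* between the WT regions and on no other receptor. Asking for a log2 fold change beyond 1 as well left 2 of 7 receptors and 5 of 12 pathway genes between the WT regions, and 7 of 13 pathway genes between the KO regions, by construction. RLE size factors changed none of these counts by over 1.5 times.

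Outside STR directions reversed in 3 cases, none of which had passed. *Sstr2* in PFC was at a log2 fold change of -0.053 without WT replicate 2 (range -0.053 to 0.233 with each sample left out), *Npy5r* in PFC at -0.049 without WT replicate 1 (-0.049 to 0.387), and *Sstr1* in NPCs at -0.216 without WT replicate 2 (-0.216 to 0.575). In STR *Sstr4* changed sign from -0.03 to 0.02, 0.10 and 0.16 without WT replicate 1, WT replicate 2 and KO replicate 1, and *Npy5r* from 0.05 to -0.05 and -0.13 without WT replicate 1 and KO replicate 2. The cause was not tested. Beside these, 67 recomputed log2 fold changes of the receptors in PFC kept direction and side of the threshold and 8 came to pass it, 43 in NPCs kept both, and between the WT regions 83 kept both, 2 came to pass and 3 no longer did. The number of samples and, for *Sstr5* in PFC and all receptors in ESCs and NPCs, low counts limit what can be seen.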

Other observations

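The deviations of log2 CPM from the 4 brain group means were compared between receptors. Of 28 pairs, 7 had an r beyond 0.5 in either direction, and the median absolute r was 0.246. The 5 pairs farthest from 0 are given here, chosen after their values were seen. On these deviations over the 12 brain samples, the neighbours *Npy1r* and *Npy5r* on chromosome 8 had r = 0.708, although their levels over all 12 samples did not follow each other (r = -0.223). *Sstr3* and *Sstr4* deviated together (0.743), as did *Sstr1* and *Npy2r* (0.752). *Sstr3* and *Npy2r* deviated in opposite directions (-0.832), and so did *Sstr1* and *Sstr2* (-0.774). These values describe the 12 samples, share libraries and regions, and include KO replicate 1 of STR, in which *Npy2r* was highest and *Sstr3* lowest of the STR samples.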
